A study of Mus musculus with 21 samples.

Results

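Vomeronasal receptors are the pheromone receptors of the mouse, and 76 of their genes held counts in male germ cells of a Tex15 study. Members were chosen by their raw counts in these same libraries: a gene row was taken when its symbol begins with Vmn1r or Vmn2r and it held a raw count of 10 or more in at least 3 of the 21 libraries. The 76 members came from 337 vomeronasal rows and 24495 gene rows in all. The V1R class (symbols in Vmn1r) gave 34 members of 211 rows, or 16.1%, and the V2R class (Vmn2r) gave 42 of 126 rows, or 33.3%. A further 74 vomeronasal rows, 60 V1R and 14 V2R, were at 0 in every library. The 42 V2R members include Vmn2r-ps11 and Vmn2r-ps54, whose symbols mark them as pseudogenes. Just inside the rule, Vmn1r185, Vmn1r194, Vmn2r1 and Vmn2r56 had 10 counts in their third-highest library, and just outside it Vmn1r44, Vmn1r6, Vmn2r22 and Vmn2r7 had 9.

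Germ cells were sorted for Oct4-GFP fluorescence from the testes of male mice of a mixed strain background, bred from Tex15 heterozygous parents. The 7 groups were Tex15 knockout (KO) and heterozygous (HT) cells at embryonic day 16.5 (E16.5), KO and HT cells at embryonic day 18.5 (E18.5), and KO, HT and wild-type (WT) cells at postnatal day 2.5 (D2.5). For the pups, the sample labels write d2.5 and the design text writes d2. Each group held 3 biological replicates, and no WT cells of the embryonic ages were analysed here, so the embryonic controls carry 1 mutant Tex15 copy. The sources used here do not give the number of animals behind a library. The comparisons ask which genes are expressed differently in germ cells without Tex15, a gene known to be needed for the silencing of transposons in the male germ line.

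The vomeronasal organ is a sensory organ of the nasal septum. A vomeronasal sensory neuron usually expresses 1 V1R gene, or 1 V2R gene together with a broadly expressed V2R of another family. V1R neurons use the G protein alpha subunit encoded by Gnai2 and respond mostly to small molecules, V2R neurons use that of Gnao1 and respond mostly to peptides and proteins, and both open the channel Trpc2. Both classes lie in clusters of similar genes.

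Gene totals were 6063632 to 11884109 counts per library, lowest at D2.5. Levels are given as CPM, scaled counts relative to the gene total of a library, and 3 counts corresponded to 0.252 to 0.495 CPM of the unscaled gene totals. Tex15 checked the labels: it averaged 3.03 ± 0.193 CPM in KO and 781 ± 34.9 CPM in HT at E18.5 (SD, n = 3 each), and each KO library lay below each control library of its age. Replicate spread, as edgeR's biological coefficient of variation, came to 17.9% in the E18.5 fit, 37.3% in the E16.5 fit and 55.4% in the D2.5 fit. At E16.5 HT replicate 1 and KO replicate 3 lay at opposite ends of the first principal component (97.3 and -64, with 76.2% of the variance). HT replicate 3 lay at -46, on the side of KO replicate 3, and the remaining libraries at 0.8 to 8.4. The E16.5 class ratios are therefore also given without HT replicate 1 and without KO replicate 3, but not without HT replicate 3. Germ cell markers summed to 2701 to 7713 CPM per library. Mature sensory neuron markers summed to 29.3 to 142 CPM. Trpc2 had 0 counts in all 21 libraries.

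By a GRCm38 annotation, 33 of the 34 V1R members have a single coding exon, and all 39 V2R members with an annotated coding sequence have 6 or more. RefSeq placed 75 members: 24 on chromosome 7, 21 on chromosome 6, 14 on chromosome 17, 5 on chromosome 13, 4 on chromosome 3, 3 each on chromosomes 5 and 10, and 1 on chromosome 14. Vmn2r123 was matched in neither annotation. Members share part of their sequence with other genes, whether members or not. The median share of a member's 31-base words that another gene also holds was 11.15% for V1R and 27% for V2R, and it was over 50% for 1 V1R member and 5 V2R members. Counts of any member with shared words may belong in part to a relative, and those 6 members share the most. The 6 are Vmn1r48 (84.3%, most with Vmn1r47), Vmn2r-ps11 (93%, most with Vmn2r5), Vmn2r62 (85.4%), Vmn2r29 (79.9%), Vmn2r55 (78%) and Vmn2r87 (56.1%).

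The sequences before the annotated start also share features that the choice of members did not use. RefSeq promoter windows (GRCm38.p6, 250 bases before to 50 after the start) were matched for 69 members. The median number of CG dinucleotides in the 300 bases was 1 for the 30 V1R members and 1 for the 39 V2R members, against 7 for all 27025 promoters. At most 3 CG stood in 96.7% of V1R, 89.7% of V2R and 31.9% of all promoters. The letters TATAAA, on either strand, stood in 50% of V1R, 43.6% of V2R and 14.2% of all promoters. CACGTG and GCGGGAA, on either strand, stood in 0 of the 69 member windows, against 7.24% and 4.66% of all promoters. Both words hold a CG, so their lack is tied to the low CG number and is not a separate feature. Vomeronasal rows that are not members were not compared, so these features are not shown to be particular to members. These are descriptions of letters in a window, and 62 of the 69 windows touch an annotated exon of their gene. For some members with TATAAA, such as Vmn1r13, Vmn1r14, Vmn1r29 and Vmn2r18, another annotated exon lies further upstream. Their windows may therefore lie inside the gene. Where a gene had several starts, the outermost was used for members and the first listed for all promoters, so the shares are not strictly alike. The 5 sequences here belong to members that passed the E18.5 test described next and have no annotated exon further upstream. Vmn2r55, Vmn2r82 and Vmn2r92 also meet both conditions and are not printed. The printed stretches run 5′ to 3′ on the gene's strand and end before the first annotated exon, with CG and TATAAA (or its reverse complement) in capitals.
Vmn1r205 (chr13:22593001-22593180, minus strand): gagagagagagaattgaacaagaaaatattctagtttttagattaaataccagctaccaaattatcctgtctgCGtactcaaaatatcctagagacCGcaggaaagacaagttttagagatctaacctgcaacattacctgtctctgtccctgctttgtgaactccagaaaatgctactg
Vmn2r57 (chr7:41448697-41448891, minus strand): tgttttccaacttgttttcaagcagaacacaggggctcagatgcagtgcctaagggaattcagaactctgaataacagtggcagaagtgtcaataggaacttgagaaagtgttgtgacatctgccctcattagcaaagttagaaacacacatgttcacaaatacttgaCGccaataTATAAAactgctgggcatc
Vmn2r87 (chr10:130497397-130497629, minus strand): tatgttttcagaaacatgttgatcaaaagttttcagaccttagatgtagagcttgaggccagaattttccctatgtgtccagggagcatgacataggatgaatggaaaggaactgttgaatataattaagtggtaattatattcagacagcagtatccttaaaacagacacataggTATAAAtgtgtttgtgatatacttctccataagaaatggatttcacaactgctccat
Vmn2r99 (chr17:19361885-19361948, plus strand): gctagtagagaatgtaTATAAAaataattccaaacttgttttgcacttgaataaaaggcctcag
Vmn2r100 (chr17:19504561-19504731, plus strand): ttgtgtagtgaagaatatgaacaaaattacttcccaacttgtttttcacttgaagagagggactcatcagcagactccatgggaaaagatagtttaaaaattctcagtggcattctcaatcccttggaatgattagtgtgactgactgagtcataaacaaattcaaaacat
Vmn2r99 and Vmn2r100 are neighbours, and the printed stretches hold 0 CG in both. TATAAA stands in those of Vmn2r57, Vmn2r87 and Vmn2r99 and not in those of Vmn1r205 and Vmn2r100. It is also absent from the stretches of Vmn2r55, Vmn2r82 and Vmn2r92, which hold 1, 3 and 0 CG.

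At E18.5, 24 vomeronasal receptor genes of both classes were higher in KO than in HT germ cells. Of the 56 members with enough counts to be tested, 24 passed at an adjusted p of 0.05 in edgeR's quasi-likelihood test with Benjamini-Hochberg adjustment over 18199 genes, and all 24 were higher in KO. Of all genes tested, 377 (2.07%) passed as higher and 12 (0.0659%) as lower. The 24 were 10 of 23 V1R members tested and 14 of 33 V2R members tested. A member could enter through KO libraries alone, since 32 of the 76 reach 10 counts in 3 KO libraries but not in 3 HT and WT libraries, so these counts describe the members and support nothing by themselves.

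Among 29 members with 10 counts in 3 libraries of E16.5 and D2.5, 23 were tested at E18.5. Of these 9 were called higher (3 of 9 V1R and 6 of 14 V2R) and 0 lower, and their median was 0.92 on the log2 scale, against 0 for all genes. Fitted with no filter on low counts, 9 of all 29 were called (3 of 12 V1R and 6 of 17 V2R), against 1.86% of 23212 genes. The 9 were Vmn1r14, Vmn1r15, Vmn1r29, Vmn2r-ps11, Vmn2r18, Vmn2r57, Vmn2r78, Vmn2r87 and Vmn2r99. KO libraries of the other ages still took part in that choice, and 4 of the 9 meet the rule in KO libraries but not in HT and WT libraries. Only HT and WT libraries of E16.5 and D2.5 chose 16 members, 7 V1R and 9 V2R. In the fit with no filter 3 of these 16 were called, all higher and all V2R (Vmn2r18, Vmn2r57 and Vmn2r78), and 0 of the 7 V1R, with medians of 0.81 for V1R and 0.61 for V2R on the log2 scale. Of the members that meet the rule in HT and WT libraries of all ages, 7 of 31 tested were called, 1 of 11 V1R and 6 of 20 V2R. A difference between the classes was not tested.

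The summed level of each class showed the same contrast in every E18.5 library. V1R members summed to 65, 63 and 74.1 CPM in KO libraries and to 23.8, 23.4 and 29 CPM in HT libraries. V2R members summed to 131, 94.7 and 132 CPM in KO libraries and to 55.3, 49.9 and 46.8 CPM in HT libraries. The lowest KO library lay above the highest HT library in both classes. The ratio of the KO mean to the HT mean was 2.65 for V1R and 2.35 for V2R. Summed over all rows of a class, whether members or not, the V1R level averaged 99.9 ± 9.05 CPM in KO and 39.5 ± 4.43 CPM in HT, and the V2R level 145 ± 25.8 CPM in KO and 61.6 ± 5.48 CPM in HT (SD, n = 3 each). In bulk samples, more cells of a type and more RNA per cell cannot be told apart.

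**Figure D1:**
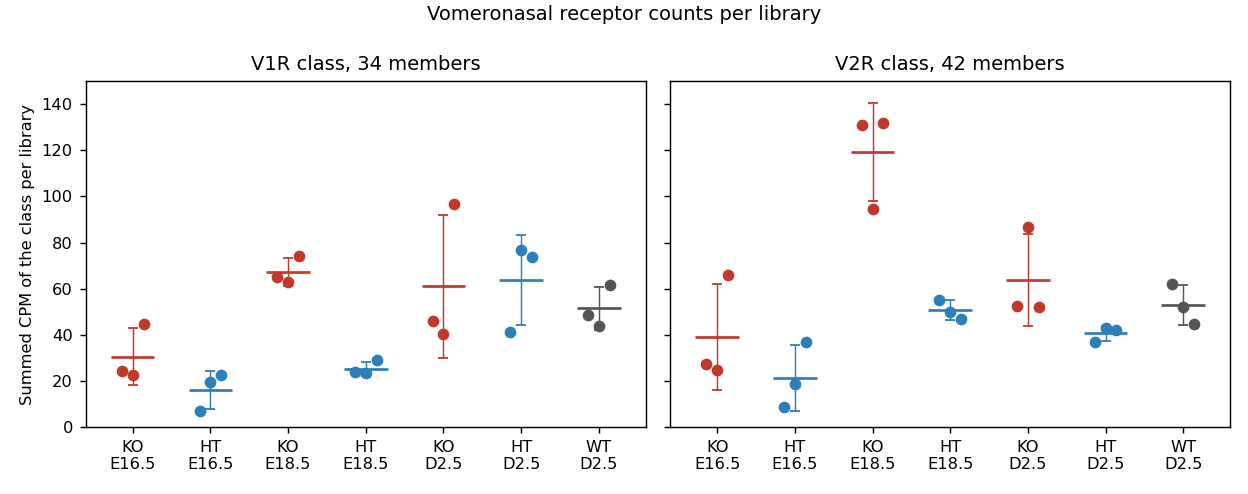
Summed CPM of the 34 V1R members (left) and 42 V2R members (right) in each of the 21 libraries, by group. Points are libraries, lines the group means and bars 1 SD; at E18.5 the KO libraries lie at 63 to 74.1 CPM (V1R) and 94.7 to 132 CPM (V2R), above HT libraries at 23.4 to 29 and 46.8 to 55.3 CPM.

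Over all 337 vomeronasal rows, members or not, 109 to 121 V1R and 85 to 99 V2R rows held at least 1 count in KO libraries at E18.5, against 78 to 100 V1R and 83 to 89 V2R rows in HT libraries. The V1R ranges were apart and the V2R ranges overlapped. Gene totals were 8522271 to 9301965 in KO and 7877665 to 11168905 in HT. Repeat names took 56% to 60.2% of all table counts in KO libraries and 49.9% to 57.6% in HT libraries, and the part of this share in the result was not tested.

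Single V1R members ranged from near absence in HT to clear counts in KO. Vmn1r204 had raw counts of 28, 27 and 30 in KO libraries and 0, 1 and 0 in HT libraries. With 1 HT count in all, the ratio of summed counts per depth was 94.6, with a counting interval of 16.5 to 3779 that covers counting error only. The edgeR test passed (adjusted p = 0.000228).

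Vmn1r14 had 47, 60 and 72 counts in KO libraries and 0, 3 and 5 in HT libraries. On the log2 scale it rose by 4.58 (SE 0.52), at an adjusted p of 0.00017 in edgeR. Its level was 5.58 ± 1.1 CPM in KO and 0.208 ± 0.201 CPM in HT (SD, n = 3 each), and no HT library came near a KO library. Vmn1r15, the neighbour of Vmn1r14 on chromosome 6, had 28, 25 and 29 counts in KO libraries and 0, 3 and 3 in HT libraries, a fitted log2 difference of 3.86 (SE 0.58, edgeR adjusted p = 0.00166). Vmn1r233, the only V1R member placed on chromosome 17, had 21, 13 and 12 counts in KO libraries and 1, 1 and 1 in HT libraries. With 3 HT counts in all, its ratio was 17.1, with a counting interval of 5.49 to 85.8 (edgeR adjusted p = 0.00397).

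The V2R member with the highest level in KO was Vmn2r78. It had 146, 136 and 180 counts in KO libraries and 9, 25 and 29 in HT libraries. On the log2 scale it rose by 3.04 (SE 0.30, adjusted p = 5.14e-05 in edgeR), at 14.5 ± 2.32 CPM in KO and 1.71 ± 0.715 CPM in HT (SD, n = 3 each). The lowest KO library held several times the highest HT library.

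Vmn2r115 had 39, 20 and 29 counts in KO libraries and 1, 1 and 4 in HT libraries, a fitted log2 difference of 3.95 (SE 0.58, edgeR adjusted p = 0.00139). Vmn2r87 had 20, 30 and 21 counts in KO libraries and 2 in each HT library, a fitted log2 difference of 3.62 (SE 0.53, edgeR adjusted p = 0.00127). The groups were far apart for both. Vmn2r112 had 28, 20 and 32 counts in KO libraries and 0, 3 and 0 in HT libraries, a ratio of 29.7 with a counting interval of 9.8 to 147 (edgeR adjusted p = 0.00172). The pseudogene Vmn2r-ps11 had 14, 30 and 34 counts in KO libraries and 3, 1 and 3 in HT libraries, a fitted log2 difference of 3.54 (SE 0.59, edgeR adjusted p = 0.00342). Its shared words mean that some of its counts may belong to Vmn2r5.

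The other called V1R members had log2 fold changes of 3.71 (Vmn1r13), 2.81 (Vmn1r205), 2.59 (Vmn1r33), 2.59 (Vmn1r74), 2.17 (Vmn1r181) and 2.11 (Vmn1r29). Vmn1r13 had 25, 12 and 14 counts in KO libraries and 0, 0 and 4 in HT libraries, and its value was 3.09 without HT replicate 2 and 7.15 without HT replicate 3. The other called V2R members were at 2.94 (Vmn2r79), 2.66 (Vmn2r82), 2.35 (Vmn2r99), 2.20 (Vmn2r55), 2.08 (Vmn2r18), 2.07 (Vmn2r92), 1.94 (Vmn2r57), 1.62 (Vmn2r53) and 1.46 (Vmn2r100). Their edgeR adjusted p lay under 0.05 and every KO library was above every HT library for all 24. That lack of overlap was seen in 34 of the 56 members tested (14 V1R and 20 V2R), and in 8.18% of all genes tested.

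Not every member followed. Vmn1r53, which has a high level per exon length, had 18, 51 and 35 counts in KO libraries and 35, 36 and 52 in HT libraries, a fitted log2 difference of -0.11 (SE 0.36, edgeR adjusted p = 0.991). Vmn2r118 had 15, 26 and 20 counts in KO libraries and 17, 20 and 13 in HT libraries, a fitted log2 difference of 0.42 (SE 0.40, edgeR adjusted p = 0.929). These groups overlapped. Vmn1r18 and Vmn2r23 had fitted values of -0.87 (SE 0.49) and -1.23 (SE 0.45), with each KO library below each HT library, and did not pass (edgeR adjusted p = 0.747 and 0.336). Over all tested members the median log2 fold change was 1.60 for V1R and 1.19 for V2R, and 5 of the 56 fitted values were below 0.

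**Figure D2:**
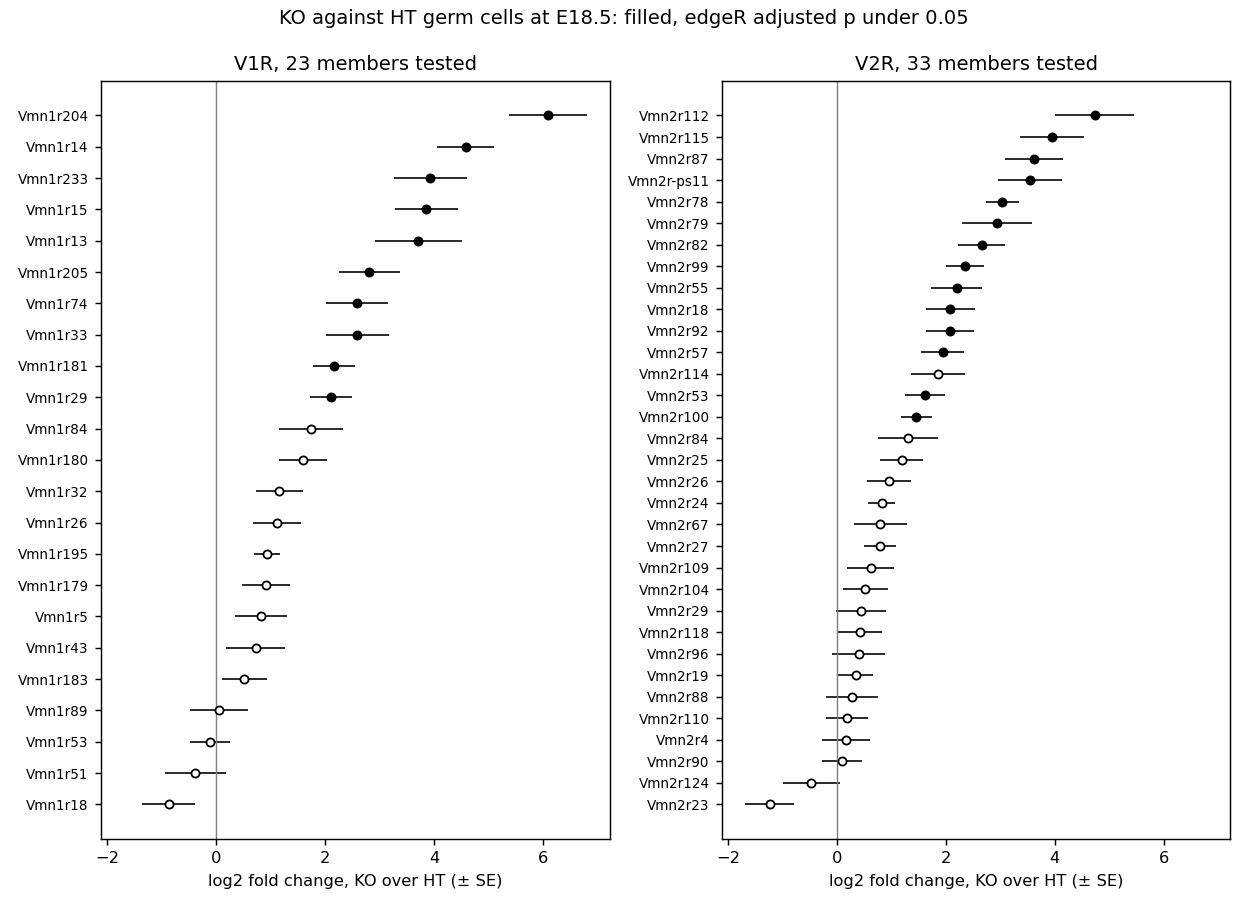
Log2 fold change, KO over HT at E18.5, of the 23 V1R and 33 V2R members tested, with bars of 1 SE; filled points passed edgeR at an adjusted p of 0.05. The 24 filled points lie between 1.46 and 6.09, and the fitted values of members with 1 to 3 HT counts depend on the prior count.

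Of the 24 calls, 11 held whichever single library was left out. They were 4 V1R members (Vmn1r14, Vmn1r15, Vmn1r204 and Vmn1r233) and 7 V2R members (Vmn2r-ps11, Vmn2r112, Vmn2r115, Vmn2r78, Vmn2r82, Vmn2r87 and Vmn2r99). Without HT replicate 2 the fit called 13 members, without KO replicate 3 it called 14 and without HT replicate 3 it called 16. The log2 fold change also moved for Vmn2r79, to 4.28 without HT replicate 2 and 2.36 without HT replicate 3. Without HT replicate 3 it was 5.33 for Vmn1r14, 4.83 for Vmn2r115 and 2.61 for Vmn2r57.

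Called V1R members were placed on chromosomes 6 (5), 7 (2), 13 (2) and 17 (1), and called V2R members on chromosomes 7 (5), 17 (5), 10 (2), 3 (1) and 5 (1). Of the 24, 9 lay next to another called member. These were the runs Vmn1r13, Vmn1r14 and Vmn1r15 on chromosome 6, Vmn1r204 and Vmn1r205 on chromosome 13, Vmn2r78 and Vmn2r79 on chromosome 7, and Vmn2r99 and Vmn2r100 on chromosome 17. Vmn2r78 and Vmn2r79 share 25.8% and 30.1% of their words, each most with the other, so their calls may not be separate. The share was 13.3% to 93% in called V2R members (median 26.4%). In tested V2R members not called it was 0.395% to 79.9% (median 27.9%). On chromosome 6, 5 of 12 tested V1R members and 0 of 6 tested V2R members were called. Of the 9 adjacent genes that are not vomeronasal receptors, all tested, 0 passed in edgeR, and their median log2 fold change was -0.07. As 2.07% of all genes passed as higher and 0.0659% as lower, 0 of 9 lies near the share of all genes. So few genes cannot show where the change ends. The lowest edgeR adjusted p among the 9 was 0.068, for Nox4 beside Vmn2r79 (log2 fold change -0.94). The neighbours of Vmn1r233, Ppp2r1a and Zfp160, were at 0 and -0.07.

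The molecules that carry vomeronasal signals gave no calls. A list of 45 genes of the pathway (channel and G proteins, V2R partner proteins, other vomeronasal receptors, neuronal transcription factors, trafficking proteins) had 30 genes tested at E18.5. Of these 0 passed in edgeR, DESeq2 or limma-voom, and the median log2 fold change was -0.03. In edgeR 2 of the 30 had an unadjusted p under 0.05, as did 1478 of all 18199 genes. In edgeR 2.07% of all genes passed as higher and 0.0659% as lower, so 0 of 30 lies near the share of all genes. Gnao1, the G protein subunit of V2R neurons, had 1610 to 2005 counts in KO libraries and 1705 to 2210 in HT libraries. Gnai2, that of V1R neurons, had 323 to 419 counts in KO libraries and 314 to 438 in HT libraries. B2m, the light chain of class I molecules, had 340 to 554 counts in KO libraries and 379 to 631 in HT libraries. All 3 overlapped between the groups.

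Markers of other cells were read beside these results. With 2.07% of all genes passing as higher and 0.0659% as lower at E18.5, 0 calls in a short list lie near that share. Mature sensory neuron markers (12 genes, 11 tested, 0 passing) summed to 98.1 to 105 CPM in KO and 94.5 to 119 CPM in HT at E18.5. Omp, a marker of mature olfactory and vomeronasal neurons, had 14, 61 and 33 counts in KO libraries and 15, 21 and 20 in HT libraries (log2 fold change 1.08, SE 0.45, edgeR adjusted p = 0.484), and Trpc2 was at 0 in all 6. The macrophage and blood list did move with genotype: 2 of its 5 tested genes passed, and it summed to 63.9 to 78.6 CPM in KO and 26.2 to 30.5 CPM in HT. Mrc1, a mannose receptor, rose by 1.82 on the log2 scale (SE 0.18, edgeR adjusted p = 6.27e-05) and Adgre1, the F4/80 antigen, by 1.43 (SE 0.27, edgeR adjusted p = 0.00883). Csf1r was at 0.41, Ptprc at 0.54 and Cd68 at -0.34 without passing, and the globin genes Hbb-b1 and Hba-a1 were at 0 in every library. As the treatment of reads matching several genes is not given, these globin counts are not read as absence of blood. At E16.5 the same list summed to 29.6 to 53.6 CPM in KO and 13.4 to 29.8 CPM in HT. The part of these cells in the result was not tested. Of the other lists, the endothelial gene Tek rose by 0.87 (SE 0.18, edgeR adjusted p = 0.0166) and the germ cell gene Pou5f1 fell to 56.3 CPM in KO against 98.7 CPM in HT (log2 fold change -0.81, edgeR adjusted p = 0.0307), while Sertoli, Leydig and stromal markers had 0 calls.

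At E16.5 no member passed. Tex15 was the only one of 16185 genes to do so in edgeR (0.00618%). Of 15 members tested 2 had an unadjusted p under 0.05, as did 190 of the 16185 genes. DESeq2 and limma-voom called 0 members too. V1R members summed to 24.3, 22.8 and 44.9 CPM in KO libraries and to 6.95, 19.5 and 22.5 CPM in HT libraries. V2R members summed to 27.3, 24.9 and 65.8 CPM in KO libraries and to 8.69, 18.6 and 37.1 CPM in HT libraries. The V1R groups were separated by a narrow gap and the V2R groups overlapped. The highest and lowest sums came from KO replicate 3 and HT replicate 1, the libraries at the ends of the first component. The log2 ratio of KO to HT was 0.91 for V1R, against 0.53 without KO replicate 3 and 0.55 without HT replicate 1. For V2R it was 0.87, against 0.28 without KO replicate 3 and 0.50 without HT replicate 1. With both libraries set aside, V1R sums were 24.3 and 22.8 CPM in KO libraries and 19.5 and 22.5 CPM in HT libraries. V2R sums were then 27.3 and 24.9 CPM in KO libraries and 18.6 and 37.1 CPM in HT libraries. The V1R groups were thus barely apart and the V2R groups overlapped. HT replicate 3, on the side of KO replicate 3 on the first component, stayed in and gave the highest HT sum of both classes. By replicate number each KO sum lay above the HT sum in both classes, though the numbers are not taken to pair the samples.

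The members with the lowest p at E16.5 were also called at E18.5. Vmn2r-ps11 had 34, 39 and 40 counts in KO libraries and 2, 10 and 8 in HT libraries, a fitted log2 difference of 2.43 (SE 0.60, edgeR adjusted p = 0.976). Vmn1r15 had 23, 16 and 14 counts in KO libraries and 1, 4 and 4 in HT libraries, a fitted log2 difference of 2.44 (SE 0.63, edgeR adjusted p = 0.976). Neither pair of groups overlapped, and KO was the higher group for both genes. A gap in that direction was found for 4 of the 15 members tested and for 3.19% of all genes tested. Vmn1r14 had 29, 35 and 27 counts in KO libraries and 2, 22 and 7 in HT libraries, and Vmn2r78 had 31, 32 and 53 counts in KO libraries and 12, 31 and 28 in HT libraries. For Vmn1r14 the groups were apart, and for Vmn2r78 the lowest KO count equalled the highest HT count. The median log2 fold change of the tested members was 1.22 for V1R and 0.78 for V2R.

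At D2.5 the family had a different make-up, and the same gene led each class in every genotype. Vmn1r32 had 76, 120 and 243 counts in KO libraries, 150, 394 and 166 in HT libraries and 145, 176 and 273 in WT libraries. It made up 44.1% of the V1R sum in KO, 60.3% in HT and 67.7% in WT. At E18.5 it had 20, 16 and 32 counts in KO libraries and 7, 13 and 14 in HT libraries.

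Vmn2r118 led the V2R members. It had 129, 179 and 67 counts in KO libraries, 129, 53 and 124 in HT libraries and 199, 179 and 175 in WT libraries, and it made up 35.9% of the V2R sum in KO, 43.1% in HT and 61.5% in WT. Its level was 23.2, 33.2 and 12.4 CPM in KO libraries, 23.4, 8.08 and 21.3 CPM in HT libraries and 35.1, 32.9 and 30 CPM in WT libraries. At E18.5 it was 1.90 ± 0.443 CPM in KO and 1.43 ± 0.356 CPM in HT (SD, n = 3 each). KO overlapped HT and WT for both genes: for Vmn1r32 the log2 fold change was -0.52 (SE 0.46) for KO against HT and -0.36 (SE 0.46) for KO against WT, and for Vmn2r118 it was 0.38 (SE 0.48) and -0.52 (SE 0.48), with edgeR adjusted p of 0.886 to 0.933. Each HT library lay below each WT library for Vmn2r118, which did not pass (log2 fold change -0.90, SE 0.48, edgeR adjusted p = 1).

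Many members were not seen at this age. In KO 14 V1R and 14 V2R members were at 0 in all 3 libraries, in HT 21 and 24, and in WT 23 and 22. Of all 24495 gene rows, 7227 to 8279 were at 0 in a single library at D2.5, against 2359 to 2687 at E18.5. The loss was thus not confined to these members. Library size was lowest at D2.5, with 6063632 to 6900680 gene counts in KO, 6395192 to 7391401 in HT and 6197559 to 7062376 in WT, and 3 counts set the limit below which a member cannot be told from absent. Of 16 members tested, 0 passed in edgeR in each of the 3 comparisons, where 0.153% of all genes passed for KO against HT, 0.216% for KO against WT and 0.00696% for HT against WT. Unadjusted p under 0.05 was found for 3, 1 and 0 members in these comparisons, and for 1036, 1116 and 488 of all 14367 genes tested. DESeq2 called 1 member in each of the first 2 and 0 in the third, and limma-voom called 0 in each.

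Vmn2r78 had the lowest p of the members tested at D2.5, for KO against HT and against WT alike. It had 11, 39 and 47 counts in KO libraries and 0 in all 6 HT and WT libraries. With 3 counts per library as the limit, it was at least 11.8-fold higher in KO than in HT and at least 11.2-fold higher than in WT. The edgeR adjusted p was 0.183 against HT and 0.173 against WT, and DESeq2 gave 0.0187 in both. Vmn1r195 had 96, 6 and 36 counts in KO libraries, 0, 0 and 8 in HT libraries and 0 in each WT library, so that it was at least 15.7-fold higher in KO than in WT, or at least 7.3-fold without KO replicate 1. It fell under the filter on low counts, and without that filter it passed against WT (edgeR adjusted p = 0.00668).

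Other members at D2.5 rested on single libraries. Vmn2r96 had 2, 52 and 2 counts in KO libraries and 0 in all HT and WT libraries. Vmn1r194 had 9, 0 and 30 counts in KO libraries and 0 in all HT and WT libraries of that age. In the other direction, Vmn1r5 had 3, 0 and 1 counts in KO libraries, 0, 4 and 88 in HT libraries and 0, 15 and 38 in WT libraries. These 3 were chosen after their values were seen, and in each 1 library held most of the counts of its group. Vmn1r53 had 52, 65 and 47 counts in KO libraries, 16, 8 and 45 in HT libraries and 46, 18 and 26 in WT libraries, with every KO library highest by CPM (log2 fold change 1.33 against HT, SE 0.84, edgeR adjusted p = 0.79). Vmn2r109 had 20, 10 and 19 counts in KO libraries, 4, 63 and 23 in HT libraries and 10, 4 and 11 in WT libraries, where 1 HT library held the most.

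The V1R sums overlapped between genotypes at D2.5. They were 46.1, 40.4 and 96.6 CPM in KO libraries, 41.5, 76.7 and 73.7 CPM in HT libraries and 48.8, 44 and 61.8 CPM in WT libraries. V2R sums were 52.6, 86.7 and 52.1 CPM in KO libraries, 37, 43 and 42.4 CPM in HT libraries and 62.2, 52.2 and 44.9 CPM in WT libraries. KO and WT each lay above HT for V2R, and KO and WT overlapped (log2 ratio 0.64 for KO to HT and 0.26 for KO to WT). Those relations of overlap depended on Vmn2r118. Without it the V2R sums were 29.4, 53.6 and 39.7 CPM in KO libraries, 13.6, 34.9 and 21.1 CPM in HT libraries and 27.1, 19.3 and 14.9 CPM in WT libraries. KO then overlapped HT and lay above WT. The log2 ratios were 0.82 for KO to HT and 1.00 for KO to WT, neither lower than with Vmn2r118. The log2 ratio of HT to WT was 0.31 for V1R and -0.38 for V2R, and the V2R ratio was 0.18 when Vmn2r118 was left out of the sum. Stromal markers summed to 291 to 781 CPM in KO, 191 to 300 CPM in HT and 161 to 451 CPM in WT at this age, and their part in the result was not tested.

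**Figure D3:**
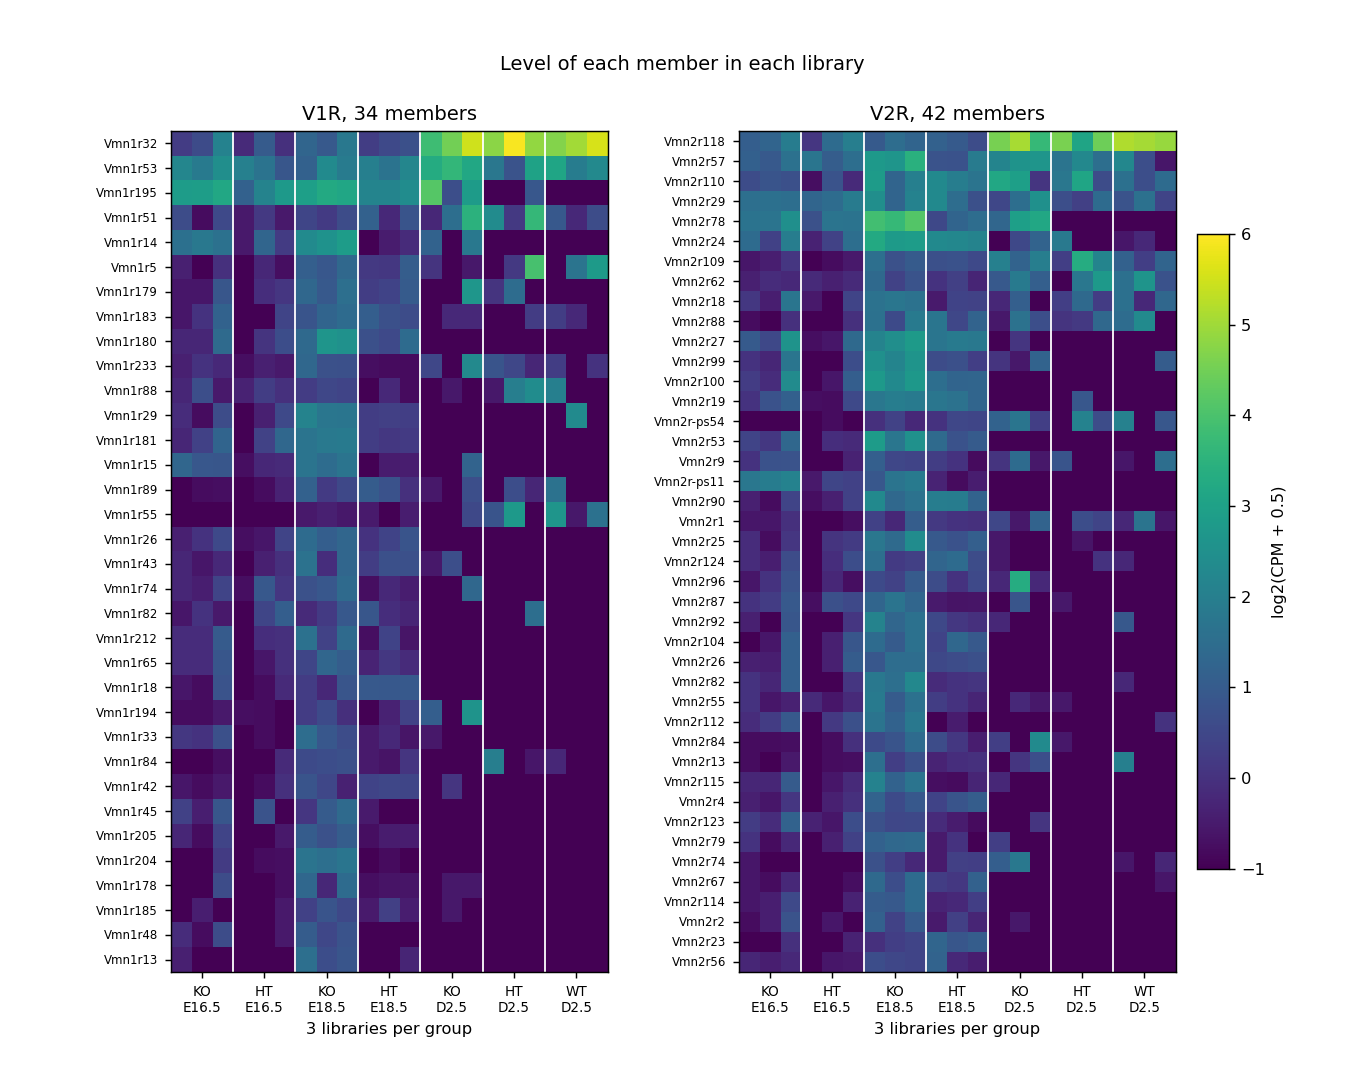
Level of each V1R (left) and V2R (right) member in each library as log2(CPM + 0.5), members ordered by their mean over the 21 libraries and groups separated by white lines. At E18.5 the KO columns are brighter than the HT columns over most rows, and at D2.5 the Vmn1r32 and Vmn2r118 rows stand out in KO, HT and WT alike.

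**Figure D4:**
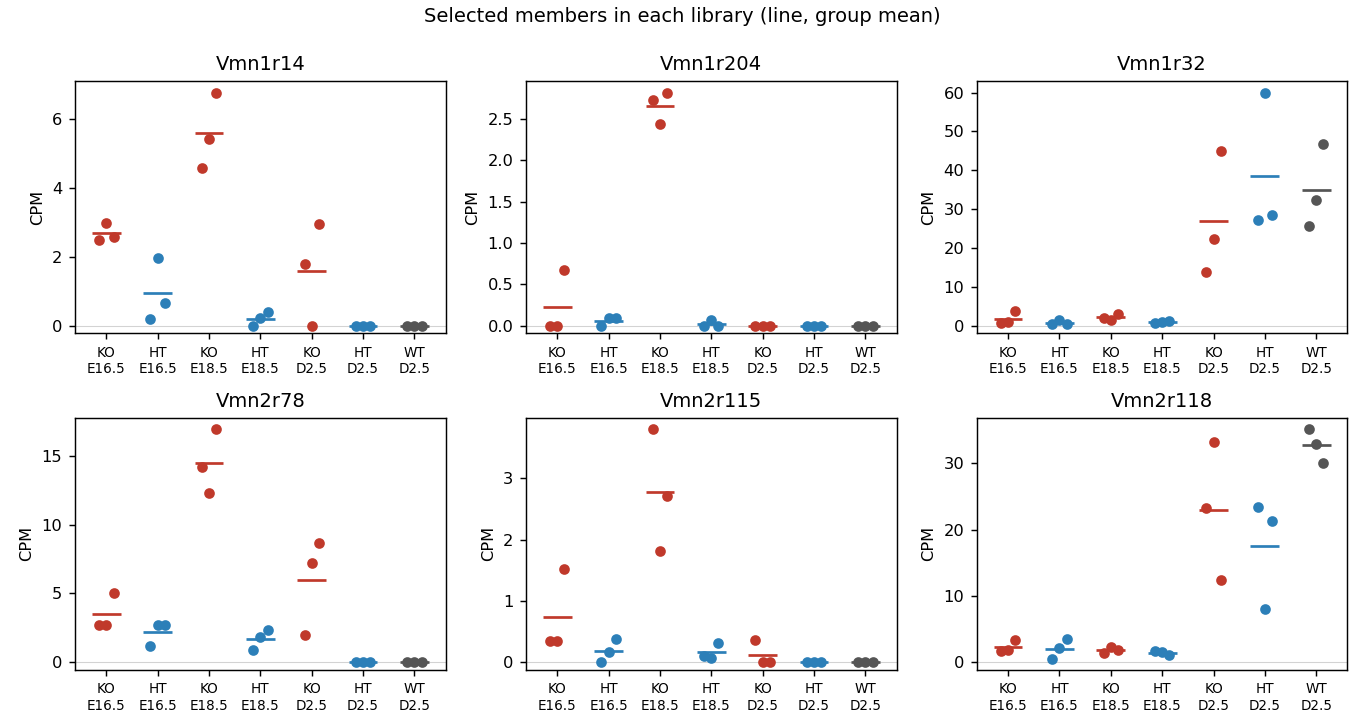
CPM in each library (points, with group means as lines) for Vmn1r14, Vmn2r78, Vmn1r204 and Vmn2r115, which passed at E18.5, and for Vmn1r32 and Vmn2r118, the leading members at D2.5. The first 4 are highest in KO at E18.5, while Vmn1r32 and Vmn2r118 are highest at D2.5 in all genotypes.

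Whether the KO effect itself changed with age was tested as a contrast over the 18 KO and HT libraries. For E18.5 minus E16.5, 0 of 70 members and 0 of 18815 genes (0%) passed in edgeR. An unadjusted p under 0.05 was found for 5 members and for 156 of the 18815 genes. DESeq2 and limma-voom called 0 members in this contrast. For D2.5 minus E18.5, 0 members and 0.0531% of all genes passed. An unadjusted p under 0.05 was found for 10 of 70 members and for 1957 of 18815 genes. DESeq2 called 1 member there and limma-voom 0. It was Vmn1r88, with 0, 1 and 0 counts in KO libraries and 1, 23 and 28 in HT libraries at D2.5, and 7, 10 and 9 in KO libraries and 0, 5 and 1 in HT libraries at E18.5 (log2 difference of the effects -7.79, SE 2.03, DESeq2 adjusted p = 0.0192). In edgeR, the calls at E18.5 and their lack at the other ages are thus not shown to differ.

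The highest levels per exon length, over all 21 libraries, were a mean of 5.35 CPM per kb for Vmn1r32, 4.15 for Vmn1r53 and 1.53 for Vmn1r195 among V1R members, and 2.18 for Vmn2r118, 0.568 for Vmn2r109 and 0.559 for Vmn2r78 among V2R members. These means are set largely by D2.5 for Vmn1r32 and Vmn2r118. By age, Vmn1r53 led the V1R members at E16.5 (2.96 CPM per kb) and E18.5 (2.98), and Vmn1r32 at D2.5 (11.8). Vmn2r-ps11 led the V2R members at E16.5 (0.728 CPM per kb), Vmn2r78 at E18.5 (1.14) and Vmn2r118 at D2.5 (4.61). These lengths come from GRCm38 gene models, which may differ from the mm9 models behind the counts. Vmn1r195 led the V1R sums at the embryonic ages. At E18.5 it had 74, 99 and 89 counts in KO libraries and 39, 53 and 60 in HT libraries, apart but short of the threshold (log2 fold change 0.93, SE 0.24, edgeR adjusted p = 0.063).

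The genes most like the strongest member of each class were found by the Pearson correlation of log2 CPM over the 21 libraries among 19019 genes. For Vmn1r204 they were Prl8a6, Olfr114 and Speer2, each at 0.98. For Vmn2r112 they were Serpina1c at 0.93, Olfr784 at 0.92 and Cst11 at 0.91. The points share libraries, groups and depth, and these values are a description.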

How the data were processed

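RNA of sorted germ cells was extracted with a PicoPure kit, amplified and made into libraries with NuGEN Ovation kits, per the labels' protocols. The authors deposited 3 tables of raw counts, 1 for each age, holding 24495 gene rows and 1217 repeat names, which were used only for shares and an alternative scaling. The submitters' processing notes name STAR, featureCounts, Bowtie, edgeR and the build mm9; the sources used here give no settings and do not say how reads matching several genes were treated.

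Each age had its own fit in edgeR 4.0.16 under R 4.3.3, with the filterByExpr filter at a minimum count of 10 and minimum total of 15, TMM scaling, quasi-likelihood test, Benjamini-Hochberg adjustment over all genes tested, threshold 0.05. The 18 KO and HT libraries were fitted together for the contrasts between ages. The standard error is the log2 fold change divided by the root of F. CPM uses TMM scaling over the 21 libraries. The fits were tested on simulated data. DESeq2 1.42.0, limma-voom 3.58.1, other scalings and filters, a replicate block and leaving out each library were alternatives, and 2 more sums of each class and the choice of members by HT and WT libraries of the other ages were added after seeing the data. Full values are given for the 4 members of each class with the largest change at E18.5, the 3 with the highest CPM per kb, and any called by edgeR in another comparison, of which there were 0. Members and lists were chosen with earlier results of these data known. Intervals are exact at 95% and, like the limit of 3 counts, cover counting error only. Replicates are biological triplicates per the design text; p-values measure the spread between these libraries.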

Additional observations from a re-analysis of the deposited data

How the results depend on the processing

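At E18.5 the number of members called was 24 under RLE, upper-quartile and genes-plus-repeats scaling, 23 with limma-voom, 26 with DESeq2 and 28 with no filter on low counts. It was 14 with a minimum count of 20, where 28 members were tested, and 13 to 26 when 1 library was left out. Deviations from the group means correlated between same-numbered KO and HT libraries at 0.25, 0.16 and 0.09 for replicates 1 to 3 at E18.5. At E16.5 the values were 0.6, -0.03 and 0.76, and at D2.5 they were 0.03, -0.02 and 0.02. As this did not hold at every age and number, the main fits do not take the numbers to pair the samples. With a replicate block 26 members were called at E18.5. At D2.5 no filter gave 1 call for KO against HT and 2 for KO against WT, and DESeq2 gave 1 in each. For the difference of the KO effect between D2.5 and E18.5, DESeq2 gave 1 call and leaving out 1 library gave 0 to 1 (Vmn1r88, named after its values were seen). The cause was not tested.

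The V1R log2 ratio at E18.5 was 1.21 on totals that include repeats and 1.17 over members that meet the rule at the other ages. At D2.5 the V1R ratio of KO to WT was 0.24, against 1.04 without Vmn1r32. The V2R ratio of KO to WT was 0.26, against 1.00 without Vmn2r118, and that of HT to WT was -0.38, against 0.18 without it. With 1 library left out, log2 fold changes spanned 0 for Vmn2r118 (-0.30 to 0.73) and Vmn2r87 (-0.30 to 0.71) at E16.5, Vmn1r53 at E18.5 (-0.47 to 0.19) and Vmn2r109 at D2.5 for KO against HT (-1.19 to 0.34).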
